A study of Mus musculus with 2 samples.

Results

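Mir320, Mir484, Mir877, Mir702 and Mir1224 are microRNA genes whose hairpins are known to be made without the Microprocessor, the complex of the nuclease Drosha and its partner Dgcr8. They were taken by name, as the capped short hairpins Mir320 and Mir484 and the mirtrons Mir877, Mir702 and Mir1224, and all 5 had a row among the 2202 microRNA genes of the deposited tables. MicroRNA sequencing was done on heart tissue of adult female mice with the strain label 5xFAD/CAST, aged 8 to 10 months, in 1 group of 2 libraries numbered as biological replicates 1 and 2, with no control group. 5xFAD mice carry mutant human transgenes of the amyloid pathway under the neuronal Thy1 promoter, while CAST names a wild-derived inbred strain of the castaneus subspecies. The labels do not say which transgenes these animals carried. Both libraries carry the same donor identifier and no label says that they came from separate animals, so differences between them may be technical.

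Most microRNAs are cut from a long primary transcript by the Microprocessor, and the released hairpin is then cut by Dicer. A capped short hairpin is transcribed as a hairpin with a cap on its own first base, leaves the nucleus through exportin 1 and goes to Dicer without a Drosha cut. A mirtron is a short intron that is spliced out and debranched, and its ends, the splice sites, become the ends of the hairpin that Dicer cuts. These routes are background here: no library lacked Drosha, Dgcr8 or Dicer, so the route of each gene was not measured.

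The annotated sequences show how closely the mirtrons keep to the ends of their introns. Sequences from the RefSeq table used here (build GRCm38.p6) were matched for Mir484, Mir877, Mir702 and Mir1224, 4 of the 5 genes. In the hairpins below, capitals mark the first and the last pair of bases of the host intron where they fall inside the hairpin. Mir877 and Mir1224 were each an entire intron, from GU to AG.

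Mir877, chr17:35960730-35960814, minus strand: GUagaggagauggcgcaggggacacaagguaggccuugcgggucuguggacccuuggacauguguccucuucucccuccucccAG
Mir1224, chr16:20604452-20604536, plus strand: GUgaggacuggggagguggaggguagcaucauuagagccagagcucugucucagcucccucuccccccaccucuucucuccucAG
Mir702, chr5:136991433-136991541, plus strand: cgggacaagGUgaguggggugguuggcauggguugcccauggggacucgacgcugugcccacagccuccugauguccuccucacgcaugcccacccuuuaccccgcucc

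The Mir702 hairpin starts 9 bases before the intron, in the exon, and stops 2 bases before the intron's end, so only the GU is in it. In the mature sequences below, capitals mark the seed, bases 2 to 8, which pairs with target RNAs.

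miR-484: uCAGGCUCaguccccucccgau
miR-877-5p: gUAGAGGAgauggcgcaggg
miR-877-3p: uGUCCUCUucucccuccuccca
miR-702-5p: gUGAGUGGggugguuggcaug
miR-702-3p: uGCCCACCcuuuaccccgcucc
miR-1224-5p: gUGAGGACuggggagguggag
miR-1224-3p: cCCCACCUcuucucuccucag
miR-3102-5p: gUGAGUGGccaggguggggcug

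The 5p sequence of each of the 3 mirtrons starts at the first base of the intron, so its seed begins at the U of the 5′ splice site. The 3p sequence of Mir1224 ends at the last base of the intron, that of Mir877 1 base earlier and that of Mir702 2 bases earlier. Each of the 7 mature sequences of these genes has a seed of its own among them. Among the 1738 mature sequences of the RefSeq table, the seed of miR-702-5p was shared with miR-3102-5p, printed last for that reason and also the product of an intron-spanning gene, and the seeds of the other 6 had no match in another gene. None of the 7 mature sequences occurs whole in another hairpin of that table. Copies elsewhere in the genome were not searched.

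**Figure D1:**
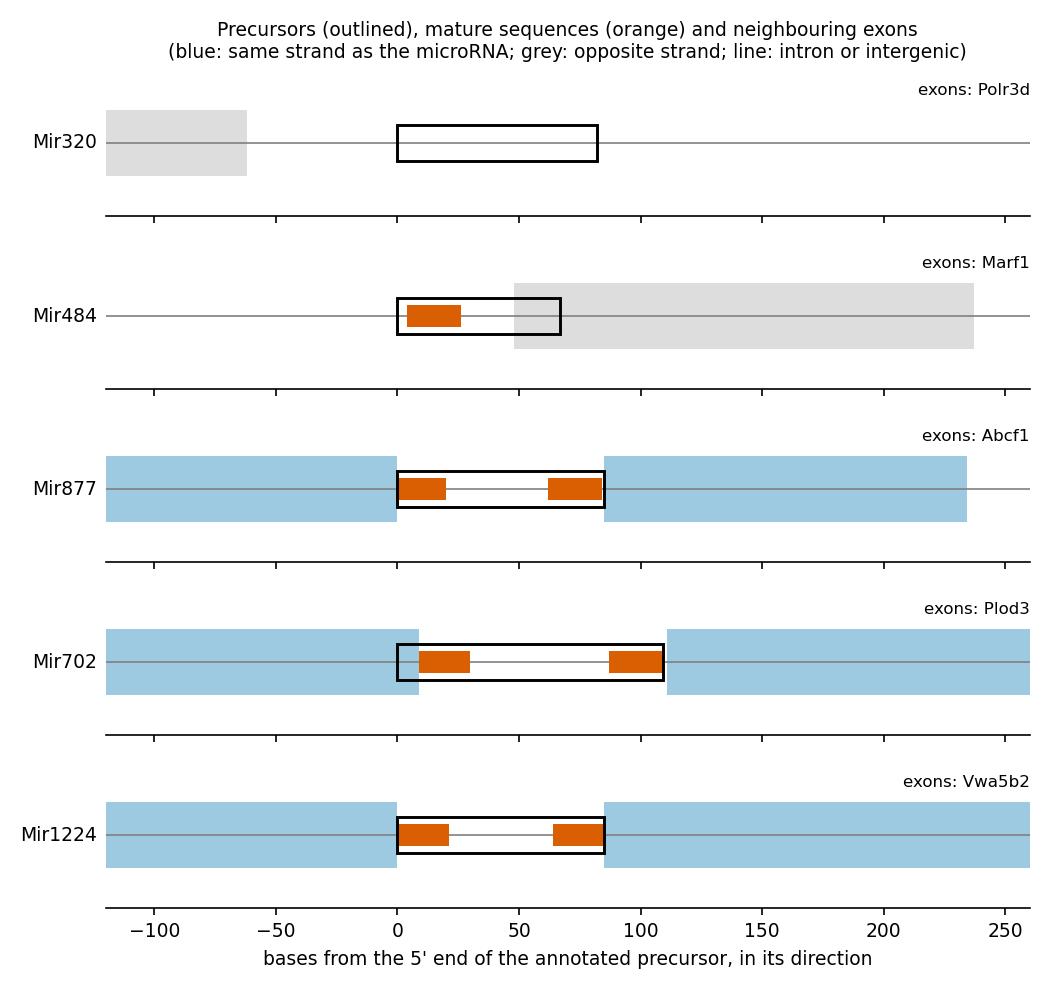
Annotated precursor of each gene (outlined box) with its mature sequences (orange; none drawn for Mir320) and the exons around it, on an axis of bases from the precursor's 5′ end in its own direction. Only exons of protein-coding genes are drawn. Exons of the same strand (blue) touch both ends of Mir877 and Mir1224 and reach 9 bases into Mir702. Those near Mir320 and Mir484 are on the opposite strand (grey).

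By the annotation (GENCODE release M21, build mm10), the capped hairpins lay outside protein-coding genes of their own strand and the mirtrons inside them. Only protein-coding genes were considered at these loci. Mir320 lies at chr14:70443510-70443591 on the plus strand, in no annotated protein-coding gene. Its 5′ end is 63 bases from the annotated start of Polr3d, a subunit of RNA polymerase III transcribed in the other direction. Mir484, at chr16:14159626-14159692 on the plus strand, overlaps 19 bases of an exon in 1 of the 3 annotated transcripts of Marf1, which is on the minus strand. The nearest other protein-coding gene of Mir484 is Nde1, a centrosomal protein gene on the same strand, whose annotated start is 3649 bases downstream of the 5′ end of the hairpin. Mir877 is an 85-base intron of Abcf1, a factor of translation initiation, in 1 of its 8 annotated transcripts. Mir702 lies in a 102-base intron of Plod3, a lysyl hydroxylase that modifies collagen, in 5 of its 6 annotated transcripts. Mir1224 is an 85-base intron of Vwa5b2, in 4 of its 13 annotated transcripts. The 4 hairpins with a sequence were rich in G and C, with 58.2% for Mir484, 61.2% for Mir877, 60.0% for Mir1224 and 65.1% for Mir702, against a median of 51.7% over the 1005 hairpins of the RefSeq table. Their predicted folding energy per base was not uniform: it was -0.50 kcal/mol for Mir1224, -0.43 for Mir702, -0.43 for Mir877 and -0.37 for Mir484, on either side of the table's median of -0.41.

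All 5 genes were detected in both libraries, and the capped hairpins held nearly all of their reads. Detection means at least 1 count per 1000000 reads assigned to microRNA genes (CPM) in both libraries, which 380 of the 2202 genes (17.3%) reached. The libraries had 4186560 and 2877511 assigned reads, 31.6% and 32.2% of all reads, while 42.4% and 43.2% mapped to several loci and were given to no gene. A count of 0 would allow up to 3 counts, 0.717 CPM in replicate 1 and 1.04 CPM in replicate 2. Intervals are exact 95% Clopper-Pearson intervals and cover counting error only, as the reads carry no molecular identifiers and may include copies of 1 molecule.

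Together the 5 genes took 14949 reads in replicate 1, 0.357% of the microRNA gene counts (0.351 to 0.363), and 15280 in replicate 2, 0.531% (0.523 to 0.539). The mean share was 0.444% ± 0.123 (SD, n = 2). Mir320 and Mir484 supplied 98.8% of these reads in replicate 1 (98.6 to 99.0) and 99.0% in replicate 2 (98.8 to 99.2). The 3 mirtrons had 179 and 150 reads, 0.00428% (0.00367 to 0.00495) and 0.00521% (0.00441 to 0.00612) of the microRNA gene counts. The ratio of capped hairpins to mirtrons was 82.5 in replicate 1 and 100.9 in replicate 2, and an exact test of that change, chosen after the values were seen, did not pass (Fisher's exact test, two-sided, odds ratio 1.22, 95% interval 0.983 to 1.52, p = 0.076, also 0.076 adjusted over the 2 such tests). No read of any of the 5 genes was counted on the opposite strand.

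Mir320, the most abundant of the 5, stood at 2868 CPM in replicate 1 (12005 reads) and 4584 CPM in replicate 2 (13191 reads), a mean of 3726 ± 1214 CPM (SD, n = 2). It ranked 34 and 30 of 2202 genes in the libraries. Mir484 stood at 660 CPM in replicate 1 (2765 reads) and 674 CPM in replicate 2 (1939 reads), a mean of 667 ± 9.47 CPM (SD, n = 2), rank 69 and 72. Both capped hairpins were thus among the well expressed genes of the heart, well above the median of 34.2 CPM over the 380 detected genes.

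The mirtrons were lower, and the mean level of all 3 was below that median. Mir877 had 28.9 CPM in replicate 1 (121 reads) and 34.4 CPM in replicate 2 (99 reads), a mean of 31.7 ± 3.89 CPM (SD, n = 2). Mir702 had 9.55 CPM (40 reads) and 14.6 CPM (42 reads), a mean of 12.1 ± 3.56 CPM (SD, n = 2). Mir1224 had the least, with 4.30 CPM (18 reads) and 3.13 CPM (9 reads), a mean of 3.71 ± 0.829 CPM (SD, n = 2). By mean level they ranked 197, 248 and 316. Mir877 supplied 67.6% of the mirtron reads in replicate 1 (60.2 to 74.4) and 66.0% in replicate 2 (57.8 to 73.5). With so few reads the intervals of Mir1224 were wide, 2.55 to 6.80 CPM in replicate 1 and 1.43 to 5.94 CPM in replicate 2.

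**Figure D2:**
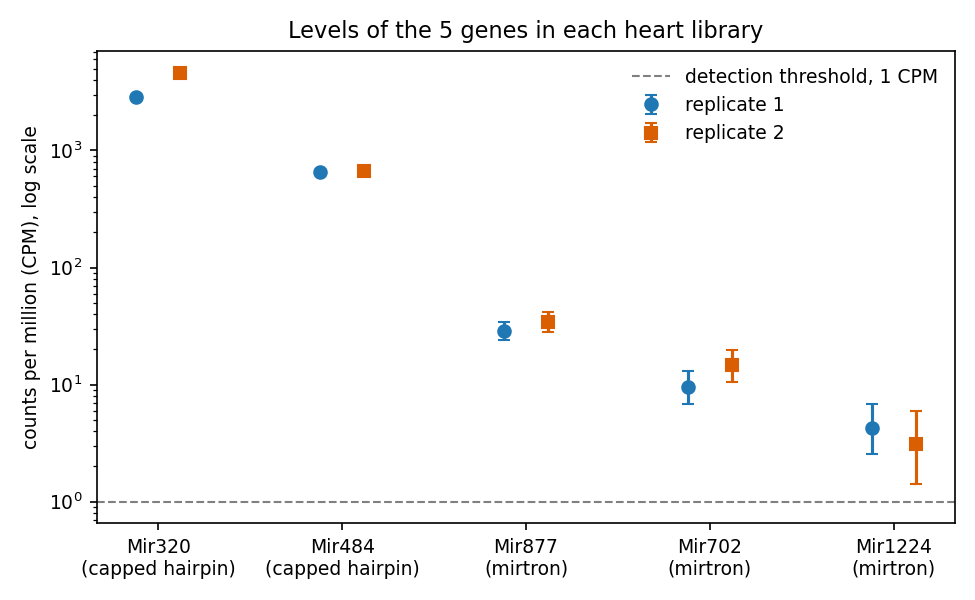
Level of each gene in CPM (log axis) in replicate 1 (circles) and replicate 2 (squares), with exact 95% intervals and the detection threshold of 1 CPM as a dashed line. The levels run from Mir320 at 2868 and 4584 CPM down to Mir1224 at 4.30 and 3.13 CPM, and no gene's libraries reach those of its neighbour.

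The order Mir320, Mir484, Mir877, Mir702, Mir1224 was the same in both libraries, and the libraries' ranges of neighbours did not overlap in any of the 4 neighbouring pairs. Each pair was compared within each library by an exact binomial test, two-sided, and 8 of 8 comparisons passed with Benjamini-Hochberg adjustment over the 8. The pairs were taken from the order of mean level in these same counts. The tests therefore set each step against counting error and are no separate support for the order. Mir320 had 4.34 times the reads of Mir484 in replicate 1 (4.17 to 4.53) and 6.80 times in replicate 2 (6.49 to 7.14). The step from Mir484 down to Mir877, which separates the capped hairpins from the mirtrons, was the largest of the 4 in both libraries, 22.9-fold in replicate 1 (19.0 to 27.6) and 19.6-fold in replicate 2 (16.0 to 24.2). Mir877 had 3.02 times the reads of Mir702 in replicate 1 and 2.36 times in replicate 2. Mir702 had 2.22 times the reads of Mir1224 in replicate 1 (1.24 to 4.12; exact binomial test, adjusted p = 0.0054) and 4.67 times in replicate 2 (2.24 to 10.9). The positions and lengths of the reads were not analysed here. The order was the same per base of the annotated gene: 45.4 CPM per base for Mir320, 9.96 for Mir484, 0.372 for Mir877, 0.111 for Mir702 and 0.0437 for Mir1224. How efficiently each sequence was captured in the libraries was not measured.

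Between the libraries, Mir320 was higher in replicate 2 and the mirtrons did not pass the test. Each gene's counts were compared with an exact binomial test given totals scaled by TMM (trimmed mean of M values), and p-values were adjusted by the Benjamini-Hochberg method over the 309 genes kept by a filter on low counts, which all 5 genes passed. The test compares these libraries with counting error, not conditions. Of the 309 genes, 63.4% passed in either direction, 35.3% with a higher and 28.2% with a lower level in replicate 2, and 2 of the 5 genes passed, both higher. A gene past this test is therefore in the majority. With no filter beyond 1 count, 214 of 709 genes (30.2%) passed, and Mir320 was the only one of the 5 among them.

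Mir320 had a log2 ratio of 0.75 (replicate 2 over replicate 1, exact 95% interval 0.71 to 0.78), 1.68-fold, and passed under all of the scalings and filters tried. The median gene differed 1.43-fold, and 97 of the 309 genes differed by more than Mir320. Mir484 had a log2 ratio of 0.10 (0.02 to 0.18; exact binomial test, adjusted p = 0.031). The call depended on the scaling and the filter: with plain totals the ratio was 0.03 and the adjusted p by the same exact test was 0.59, and the call was also lost with each of the other alternatives, where the adjusted p was 0.055 to 0.33. Mir320 relative to Mir484 does not depend on the scaling, and this ratio was 1.57 times as high in replicate 2 as in replicate 1 (1.47 to 1.67; Fisher's exact test, two-sided, chosen after the values were seen, adjusted p = 1.7e-44 over 2 tests). The ratio of the capped hairpins to each other thus differed beyond counting error, which is all that this test covers. No ratios of other gene pairs are given beside it, so whether this pair moved more than others is not known.

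Mir702 had a log2 ratio of 0.68 (0.02 to 1.34; exact binomial test, adjusted p = 0.051), of nearly the size of Mir320 but with 40 and 42 reads behind it. Mir877 had a log2 ratio of 0.32 (-0.07 to 0.72; exact binomial test, adjusted p = 0.14). Mir1224 was the only one of the 5 with a ratio below 0, at -0.39 (-1.72 to 0.84; exact binomial test, adjusted p = 0.66). A ratio as large as that of Mir320 lies inside the intervals of Mir702 and Mir1224, near the upper bound of the latter. The upper bound of Mir877 is just below that ratio.

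**Figure D3:**
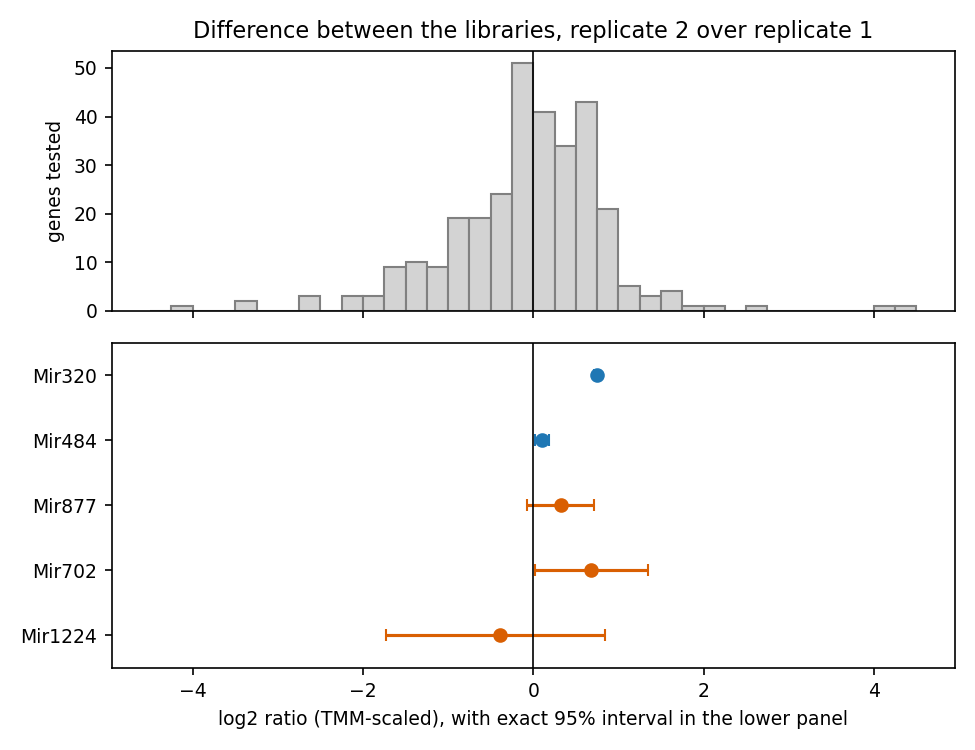
Upper panel: number of genes by log2 ratio of replicate 2 over replicate 1 for the 309 genes tested. Lower panel: log2 ratio with exact 95% interval for each of the 5 genes (blue: capped hairpins, orange: mirtrons), narrow at 0.75 for Mir320 and widest for Mir1224, from -1.72 to 0.84.

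Markers of several cell types also differed between the libraries. The smooth muscle genes Mir143 and Mir145a summed to 32911 CPM in replicate 1 and 56334 CPM in replicate 2, and the leukocyte genes Mir142, Mir223 and Mir150 to 2048 and 3518 CPM, with all members of both lists present. Lower in replicate 2 were the cardiomyocyte genes Mir208a, Mir208b and Mir499, at 6466 and 4715 CPM. So were the erythroid genes Mir451a and Mir144, at 755 and 230 CPM, and Mir126a, the only endothelial gene listed, at 174314 and 46780 CPM. The heart label thus had its cardiomyocyte markers. Of the neuronal list, Mir137 had 96.5 and 43.8 CPM, while Mir124a-1, Mir124a-2 and Mir124a-3 were listed at 0. These 3 loci are known to encode the same mature microRNA and reads at several loci were given to no gene, so their zeros say nothing of its level. The summed hepatocyte and epithelial markers stayed at or below 98.4 CPM in either library. The part of these differences in the change of Mir320 was not tested. In bulk tissue fewer cells of a type, less RNA per cell and a technical difference between the libraries cannot be told apart. CPM is a share of the assigned counts, so a large change of 1 gene also shifts the CPM of the others.

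**Figure D4:**
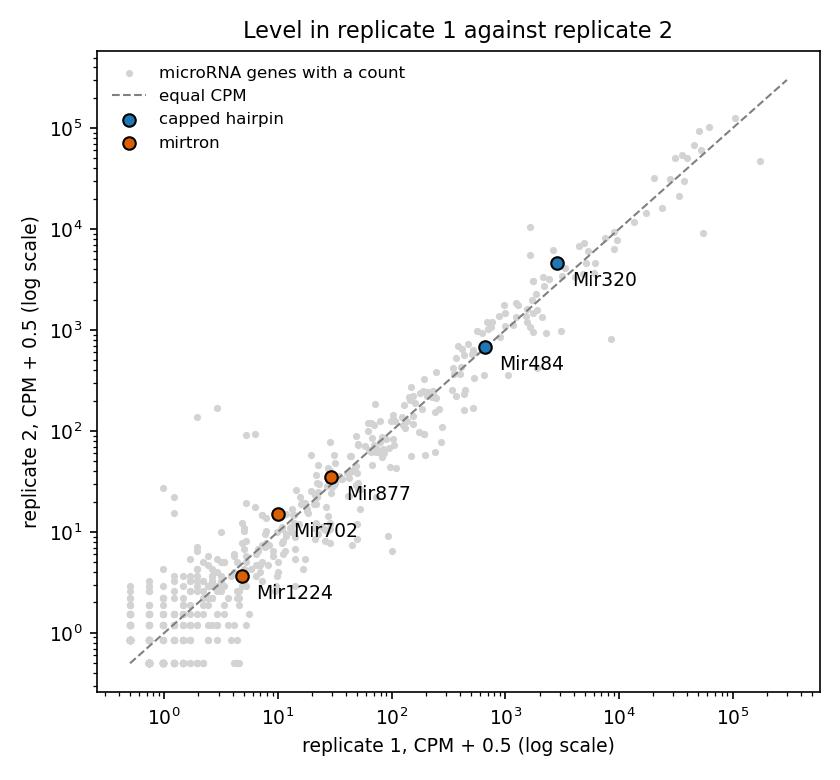
Level of each microRNA gene with a count in replicate 1 (x axis) and replicate 2 (y axis), both as CPM + 0.5 on log axes, with capped hairpins in blue, mirtrons in orange and equal CPM as a dashed line. Mir320 lies above the line at 2868 and 4584 CPM, Mir484 on it at 660 and 674 CPM, and the mirtrons run down to where single reads form rows of points.

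Other genes at the same level were found by the distance of log2(CPM + 0.5) over the 2 libraries, so likeness is in level only. Nearest to Mir320 were Mir155, at 3321 and 4122 CPM, and Mir322, at 3133 and 3397 CPM. Mir484 was nearest to Mir181d, at 633 and 638 CPM, and Mir342, at 629 and 709 CPM. The mirtron Mir877 was nearest to Mir378c and Mir431, Mir702 to Mir33 and Mir3100, and Mir1224 to Mir6971 and Mir1941.

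The mirtrons were then set beside other genes of the same shape. By the annotation, 42 microRNA genes had both ends within 15 bases of the ends of 1 intron on their strand, the 3 mirtrons among them, in introns of 66 to 137 bases with a median of 81, and 22 of the 42 matched the intron at both ends exactly. At least 1 read was found for 30 of the 42 (71.4%), against 679 of the other 2160 microRNA genes (31.4%). Reads that mapped to several loci were given to no gene, so a gene with copies elsewhere can stand at 0. How many genes of either set this concerns was not examined. Detected in both libraries were 10 of the 42 (23.8%), against 370 of the 2160 (17.1%). The detected ones were low, with a median of 4.86 CPM against 34.6 CPM for the others detected. Without the 3 mirtrons, 27 of 39 genes had a read (69.2%) and 7 were detected (17.9%), near the 17.1% of the 2160. The median of these 7 was 3.24 CPM. All 42 together held 0.0328% and 0.0426% of the microRNA gene counts, against 0.287% and 0.458% for Mir320 alone. The set depends on which introns are annotated, and no test was made of these shares.

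**Figure D5:**
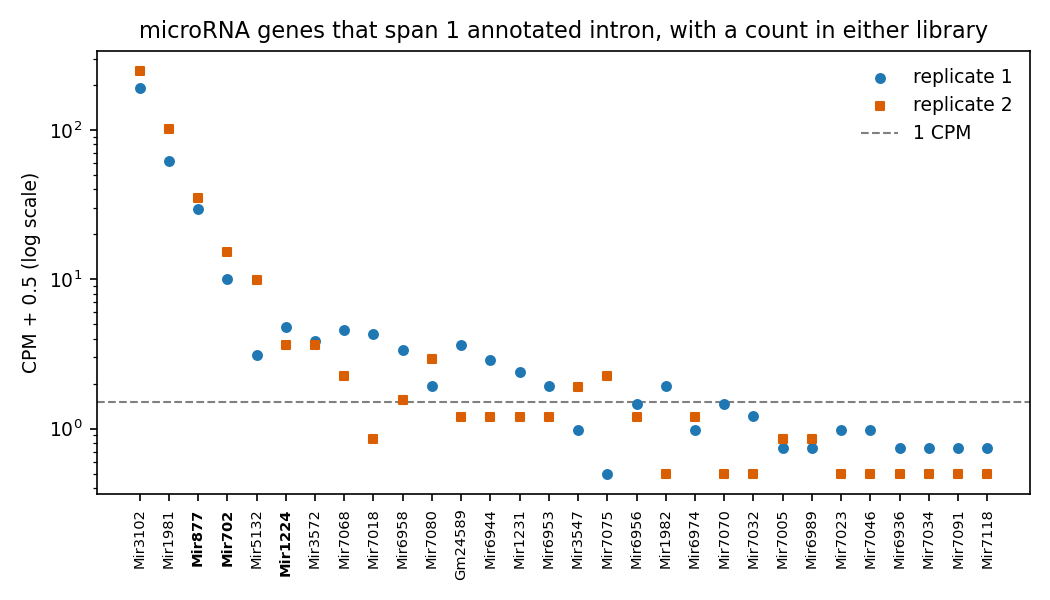
CPM + 0.5 (log axis) in replicate 1 (circles) and replicate 2 (squares) for the 30 intron-spanning microRNA genes with a count, ordered by mean level, with Mir877, Mir702 and Mir1224 in bold and 1 CPM as a dashed line. Mir3102 and Mir1981 lie above the 3 mirtrons, and most of the others lie near or under the line.

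Within that set only Mir3102, Mir1981 and Mir5132 came before the last of the 3 mirtrons by mean level, the first 2 of them also above Mir877. Mir3102, in Arhgef17, led with 190 CPM in replicate 1 (795 reads) and 247 CPM in replicate 2 (712 reads). Mir1981, in Marc2, followed with 61.1 CPM (256 reads) and 100.1 CPM (288 reads). Mir3102, whose 5p sequence has the seed of miR-702-5p, thus stood above Mir702 in both libraries. The counts are per gene, so the level of either 5p sequence was not measured. Mir5132, in Irak1, had 2.63 and 9.38 CPM, Mir3572, in Cnot3, 3.34 and 3.13 CPM, and Mir7068, in Cherp, 4.06 and 1.74 CPM. Of the 6 genes of the set that passed the filter on low counts, Mir3102 (log2 ratio 0.45, exact 95% interval 0.31 to 0.60) and Mir1981 (0.78, 0.53 to 1.03) were higher in replicate 2, none was lower and 4 did not pass. Over all 309 genes 35.3% were higher and 28.2% lower, so 2 of 6 higher is close to the general share. The median log2 ratio of the 6 was 0.39, beside 0.01 over the 309.

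The start at the splice site was shared by many but not all of the set. Of its 36 annotated 5p sequences, 20 (55.6%) start at the first base of the intron, and of its 35 annotated 3p sequences, 20 (57.1%) end at the last base and 6 (17.1%) end 1 base earlier. The letters GUGAG, which open miR-702-5p, miR-1224-5p and miR-3102-5p, open 12 of the 36 (33.3%) and 14 of all 727 annotated 5p sequences (1.93%). Mir877 and Mir1981 open with other letters after GU. This count follows in part from how the set was chosen, because most introns start with GU. The 5p sequence of Mir7088 starts at the first base of its intron but opens with GCAAG.

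MicroRNA genes that overlap snoRNA genes, some of which are known to yield microRNAs, stayed below both capped hairpins. Of the 19 microRNA genes that overlap an annotated snoRNA gene on their strand, 9 (47.4%) were detected, against 17.3% of all microRNA genes. No test was made of this share. The highest was Mir664, from the snoRNA gene Snora36b, at 107 and 124 CPM. Below it stood mmu-mir-3535 with 52.3 and 16.3 CPM, Mir3068 with 41.1 and 22.2 CPM, Mir5121 with 20.8 and 7.99 CPM and Gm49347 with 9.32 and 14.6 CPM. The snoRNA entry that Mir3068 overlaps bears the name Mir3068 itself, not that of a separate snoRNA. The same holds for Mir677 and Mir1949, which were also detected. Mir451a, whose hairpin is cut by Drosha but then by Ago2 in place of Dicer, had 515 CPM in replicate 1 and 168 CPM in replicate 2 and was lower in replicate 2 (log2 ratio -1.54, exact 95% interval -1.69 to -1.40). Its mean of 341 ± 245 CPM (SD, n = 2) lies between those of Mir484 and Mir877.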

How the data were processed

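MicroRNA sequencing of 2 heart libraries was analysed. Each library has a table of unnormalised counts of reads for every microRNA gene, as deposited by the authors. The deposited readme names build mm10 and annotation release M21; the aligner is not given in the sources used here, nor is the counter. Column 3, the strand of the gene, was used. The first 4 rows name no gene (unmapped 19.0% and 17.5% of reads, several loci 42.4% and 43.2%, outside genes 6.94% and 7.11%, ambiguous none) and stayed out of library sizes and tests. Total RNA was the input, with a labelled size range under 30, unit not stated.

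CPM was computed over assigned counts. TMM scaling and the filter (filterByExpr, minimum count 10) used edgeR 4.0.16 in R 4.3.3, and DESeq2 1.42.0 gave alternative size factors. Exact tests and intervals used Python 3.11.15 with scipy 1.17.1, and the threshold was 0.05. The binomial step was tested on simulated counts that held counting error only. That simulation does not show how the test behaves with further spread between libraries. Hairpins were folded with RNAfold 2.7.2. The members and lists were chosen with earlier results of these data known. Named were the 5 members, up to 8 detected intron-spanning and 5 snoRNA-overlapping genes by level, Mir451a, the 2 genes nearest to each member in level, and genes sharing a member's seed. Alternatives covered the strand column, each replicate left out, scaling, filter, denominator, detection threshold, intron tolerance and length; leaving out each replicate for the order and for the detection counts was added after the data were seen.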

Additional observations from a re-analysis of the deposited data

How the results depend on the processing

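The order of the 5 genes was the same per base of gene and without either replicate. The higher level of Mir320 in replicate 2 passed under every scaling, strand and filter setting tried, and Mir877, Mir702 and Mir1224 kept their direction and did not pass under any. Mir484 lost its call with DESeq2 size factors (log2 ratio 0.090), plain totals (0.029), counts regardless of strand (0.050) and no filter on low counts (0.10); the larger number of genes adjusted for is the only change in the last. The share of counts held by the 5 genes was 0.588% with counts regardless of strand and 0.142% of all reads, because the denominator changes and the members' reads do not. It ranged from 0.357% to 0.531% when a replicate was left out. The CPM of 4 members moved beyond 1 SD with counts regardless of strand and that of 5 with all reads as the denominator. At 10 CPM in both libraries 3 of the 5 genes were detected. Of the 42 intron-spanning genes, 4 were detected at 5 CPM and 3 at 10 CPM, and 12 to 16 when a replicate was left out, since 1 library then sufficed: 16 without replicate 2. With 5 bases allowed at each end the set held 23 genes and left out Mir702, and with 30 bases it held 73. No paired analysis was possible because the design has 1 group. Depth limits the mirtrons most: 9 reads of Mir1224 in replicate 2 set its interval.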
